A study of Mus musculus with 6 samples.

Results

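The genes described here carry a fatty acid from its release out of a lipid store to the electrons it yields in the mitochondrion. They are 33 of the 31053 genes in the deposited table, listed by name for lipid release and uptake, fatty acid activation, the carnitine shuttle, β-oxidation, electron transfer and nuclear receptors of this path. The rule that lists them uses no measured value, although the list was drawn up with earlier results of these data known, and 31 of the 33 passed the expression minimum and were tested. Quiescent muscle stem cells (qMuSCs) had been sorted by FACS on GFP driven by Pax7 from resting hindlimb muscles of 6 mice aged 3 to 4 months, with an RNA-seq library for each mouse. The 3 WT mice (c124, c129 and c130) were Pax7nGFP/+;Pax7+/+;Dio2Fl/Fl, and the 3 cD2KO mice (fl125, fl126 and fl128) were Pax7nGFP/+;Pax7-CreERT2/+;Dio2Fl/Fl. All 6 mice carried floxed alleles of Dio2, the gene of the deiodinase D2 that activates thyroid hormone, and all received tamoxifen. WT mice lacked the Cre that tamoxifen activates, so that loss of Dio2 and presence of Cre cannot be told apart. The comparison asks how RNA of qMuSCs differs in mice bred for deletion of Dio2 in these cells.

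Long-chain fatty acids enter a cell from lipoproteins or are cut from the triglycerides of its lipid droplets. An acyl-CoA synthetase then joins them to coenzyme A, the carnitine shuttle takes them across the inner mitochondrial membrane, and the β-oxidation spiral shortens them while electrons pass through electron transfer flavoprotein to the respiratory chain. Fatty acid oxidation is known as a main fuel path of quiescent muscle stem cells, and activated cells turn more to glycolysis.

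Total counts ranged from 2184073 to 3897787 per mouse, and at these depths 3 counts equalled 0.768 to 1.36 CPM (the usual per-library scaled count, here with TMM factors). Dio2 had few reads, with 21, 5 and 10 counts in WT (in the order c124, c129, c130) and 15, 5 and 1 in cD2KO (in the order fl125, fl126, fl128), the order kept for all values by mouse. It was not tested, the counts do not separate the floxed exon, and at 6.80 CPM, against 1.84 to 5.38 CPM in WT, no mouse had more Dio2 than the library labelled fl125. All 15 muscle stem cell markers were detected, among them Pax7 at 211 to 431 CPM in WT and 314 to 688 CPM in cD2KO. Their summed CPM was 2468 to 3350 in WT and 3956 to 4418 in cD2KO. Markers of other cells were detected too, some at higher sums, and several differed between the groups. The 13 mural cell genes summed to 6268 to 10514 CPM in WT and 12556 to 18707 CPM in cD2KO. The 7 Schwann cell genes summed to 5354 to 8383 CPM in WT and 7698 to 8202 CPM in cD2KO. Such sums run over different genes and give no shares of cells. The summed CPM of 16 immune cell genes was 4585, 8568 and 5660 in the WT mice and 233, 2543 and 2984 in the cD2KO mice. In bulk RNA, fewer cells of a type and less RNA per cell cannot be told apart.

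Of the 31 tested genes of the path, 3 were higher in cD2KO (Acads, Pnpla2 and Fabp3) and 2 were lower (Plin2 and Lpl) where edgeR's quasi-likelihood test gave an unadjusted p below 0.05. That is 16.1% of them, where 12% of all 11633 genes tested passed the same threshold, 5.34% upward and 6.62% downward. None of the 31 passed Benjamini-Hochberg adjustment over all genes, the lowest adjusted p being 0.213, whereas 0.774% of all genes had an adjusted p under 0.1. At an adjusted p under 0.05 the share of all genes was 0.0086%. The Wald test of DESeq2 and limma voom gave none of the 31 an adjusted p under 0.1 either, each calling 4 of them at an unadjusted p under 0.05, whereas edgeR without an expression minimum gave Plin2 an adjusted p of 0.00765 and Fabp3 one of 0.0530. The median log2 fold change (cD2KO minus WT) was 0.04 over the 31 genes and −0.02 over all genes tested. It was above 0 in 17 of the 31 genes, or 54.8%, and in 48.1% of all genes. The 3 cD2KO mice lay entirely above or below the 3 WT mice in 6 of the 31 genes, which is 19.4% against 18.1% of all genes. Both shares were near those of all genes.

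All 4 genes of lipid release, uptake and carriage passed the unadjusted threshold, 2 in each direction. Of the 27 tested genes of the later steps and receptors, 1 passed it, Acads. The difference between these shares was not tested. The 26 genes that were not called had log2 fold changes between −0.63 and 0.61. A p that misses the threshold does not show that a gene was unchanged, but 21 of the 31 genes had a 95% interval that lay entirely within 1 on the log2 scale in either direction. In the following, a gene is said to be higher, lower or called when its unadjusted p was under 0.05, and adjusted p are over all 11633 genes.

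**Figure D1:**
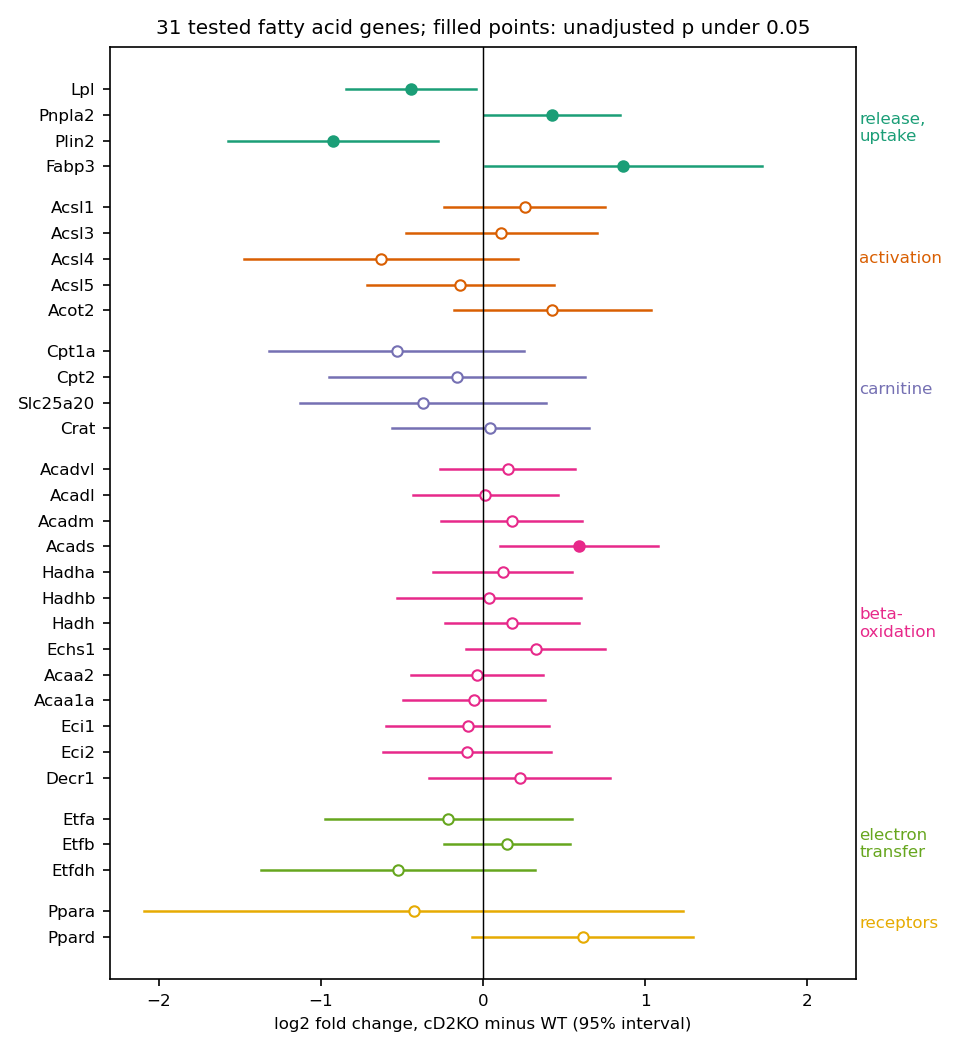
Log2 fold change (cD2KO minus WT, x axis) of each of the 31 tested genes (y axis, grouped by role), with its 95% interval as a line, from edgeR. Filled points mark the 5 genes with an unadjusted p under 0.05, of which 4 belong to lipid release and uptake and 1, Acads, to β-oxidation, and the lines of the other 26 genes cross 0.

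Plin2, the coat protein perilipin 2 that covers lipid droplets in most tissues, had the smallest p of the list. Its level was 106, 228 and 135 CPM in the WT mice and 56.6, 85.6 and 104 CPM in the cD2KO mice. Every cD2KO mouse lay below every WT mouse, narrowly between fl128 and c124, and c129 stood far above the rest. The means were 156 ± 64.0 CPM in WT against 82.0 ± 23.7 CPM in cD2KO (SD over 3 mice in each group), a log2 fold change of −0.93 (standard error 0.30, 95% interval −1.57 to −0.28, unadjusted p = 0.00883, adjusted p = 0.213 by edgeR). Without the WT mouse c129 the log2 fold change was −0.52 and the call was lost (edgeR's quasi-likelihood test, unadjusted p = 0.0762).

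Lpl encodes lipoprotein lipase, which frees fatty acids from circulating lipoproteins and had the highest CPM of the list. It stood at 340.0, 371 and 398 CPM in the WT mice and at 259, 268 and 289.8 CPM in the cD2KO mice. The groups did not overlap, the lowest WT mouse being c124 and the highest cD2KO mouse fl128. From 369.9 ± 29.3 CPM in WT it was lower at 272 ± 15.9 CPM in cD2KO (SD, n = 3), which is 0.735-fold, the log2 fold change being −0.44 (standard error 0.19, 95% interval −0.84 to −0.04, unadjusted p = 0.0318, adjusted p = 0.375 by edgeR). The fold change remained between −0.50 and −0.37 when the mice were left out singly. The unadjusted p was then between 0.0349 and 0.112, and it passed the threshold only without c124 or without fl128 and not without c129, c130, fl125 or fl126 (edgeR). Lpl also missed it without an expression minimum (unadjusted p = 0.0674 by edgeR).

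Pnpla2 encodes adipose triglyceride lipase, the enzyme that takes the first fatty acid off a stored triglyceride. Its levels were 90.6, 72.6 and 86.9 CPM in the WT mice and 98.3, 120.5 and 117 CPM in the cD2KO mice. All cD2KO mice lay above all WT mice, with fl125 closest to them. The mean rose from 83.4 ± 9.54 to 112 ± 12.0 CPM (SD, n = 3), giving a log2 fold change of 0.42 (standard error 0.20, 95% interval 0.0045 to 0.84, unadjusted p = 0.0479, adjusted p = 0.414 by edgeR). The call was lost without any mouse other than fl125, at unadjusted p from 0.0566 to 0.144, while the fold change was 0.36 to 0.55 (edgeR, each mouse left out in turn).

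Fabp3, the fatty acid binding protein of heart and muscle that carries fatty acids through the cytosol, was measured at 28.9, 28.4 and 20.8 CPM in the WT mice. In the cD2KO mice it was at 20.4, 44.5 and 76.7 CPM. The groups overlapped, since fl125 had the lowest level of all 6 mice and fl128 the highest. The means were 26.0 ± 4.55 CPM in WT against 47.2 ± 28.2 CPM in cD2KO (SD, n = 3), the log2 fold change being 0.87 (standard error 0.39, 95% interval 0.0098 to 1.72, unadjusted p = 0.0478, adjusted p = 0.414 by edgeR). Without fl128 the log2 fold change was 0.32 (unadjusted p = 0.387 by edgeR), without fl125 it was 1.26 (unadjusted p = 0.000479, adjusted p = 0.0330), and without any of the other 4 mice the call was lost at unadjusted p from 0.0760 to 0.150 (edgeR). Of its exon bases, 19.6% overlap Gm10570 or Zcchc17 on the opposite strand, and whether strand was used in counting is not given in the sources used here.

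**Figure D2:**
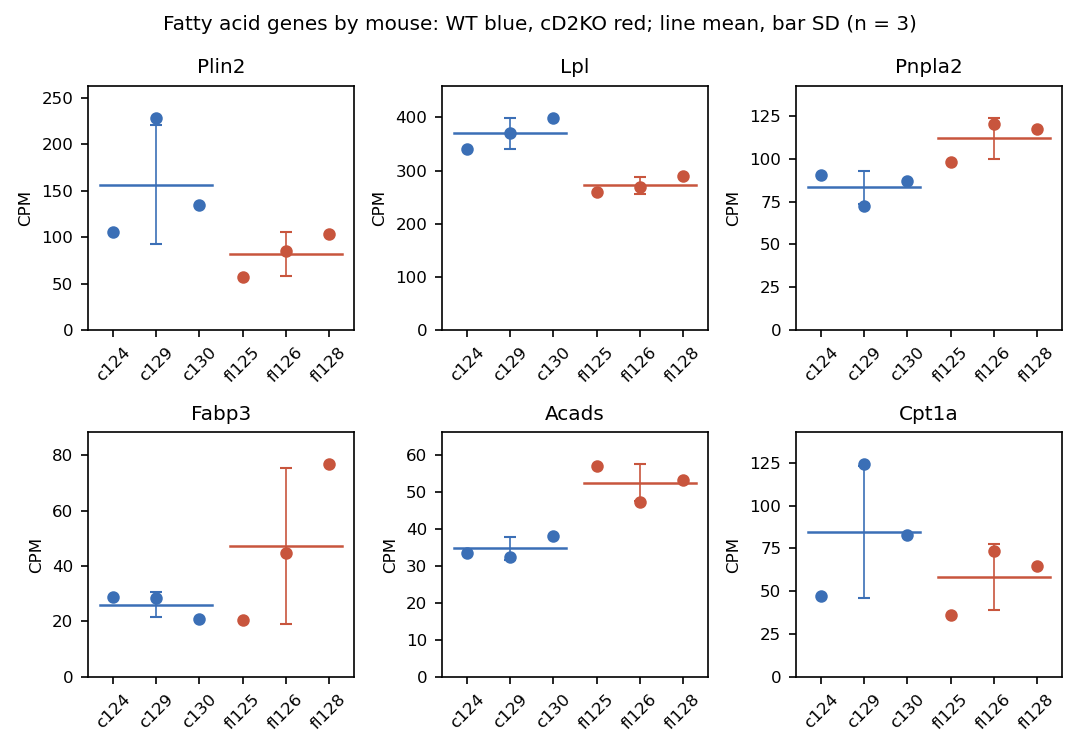
Level in CPM (y axis, from 0) of the 5 called genes and of Cpt1a in each mouse (x axis, WT blue and cD2KO red), with the group mean as a line and the SD as a bar (n = 3). In Plin2, Lpl, Pnpla2 and Acads the groups do not overlap, and in Fabp3 the mouse fl125 at 20.4 CPM lies under all WT mice.

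The sequences before the start sites are shown for the called genes that have an unambiguous window in the promoter table. Each is the 250 bases upstream of the RefSeq start on GRCm38.p6, the assembly also named mm10, printed 5′ to 3′ on the gene's own strand. The window of Plin2 is chr4:86670060-86670309 (minus strand), that of Pnpla2 is chr7:141454938-141455187 (plus strand) and that of Acads, the fourth called gene without overlap, is chr5:115119347-115119596 (minus strand). Capitals mark the matches on either strand to the motifs AGGTCA (the core bound by nuclear receptors), GGGCGG (the GC box) and CCAAT (the CCAAT box). Fabp3 had no match to any of them, and its window is not printed because it runs into an annotated exon.
Plin2: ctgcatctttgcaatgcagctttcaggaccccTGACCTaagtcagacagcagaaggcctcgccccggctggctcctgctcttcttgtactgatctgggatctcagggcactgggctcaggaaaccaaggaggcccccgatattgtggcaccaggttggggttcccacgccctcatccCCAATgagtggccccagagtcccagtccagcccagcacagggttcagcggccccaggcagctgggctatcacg
Pnpla2: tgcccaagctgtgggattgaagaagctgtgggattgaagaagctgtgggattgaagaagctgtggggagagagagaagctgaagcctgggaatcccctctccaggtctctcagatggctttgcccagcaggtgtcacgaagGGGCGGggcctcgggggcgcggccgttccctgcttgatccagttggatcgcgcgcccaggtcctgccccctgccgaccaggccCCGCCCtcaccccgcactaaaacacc
Acads: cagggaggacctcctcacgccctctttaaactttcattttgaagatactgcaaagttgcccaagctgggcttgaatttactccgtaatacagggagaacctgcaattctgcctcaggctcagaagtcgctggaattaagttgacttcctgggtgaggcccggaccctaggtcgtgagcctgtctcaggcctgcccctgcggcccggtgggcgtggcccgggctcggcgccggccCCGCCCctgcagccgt
The core in Plin2 begins 218 bases before the start and reads on the minus strand of the gene, and its CCAAT box begins 73 bases before it. Pnpla2 and Acads held GC boxes and no AGGTCA. Over the 28 genes of the list with a promoter entry, 6 held AGGTCA (Acadm, Acadvl, Acsl6, Cpt1a, Echs1 and Plin2), which is 21.4% against 14.0% of all 32851 promoters in the table. The GC box was in 19 of the 28, or 67.9% against 32.7% of all, and the CCAAT box in 14, or 50% against 33.9%. The shares of the list count genes, and a gene with several promoter entries was held to match if any entry did. The shares of all count promoter entries, so that the units differ. None of the 28 held AGGTCA repeated in the same direction with 1 base between the copies, a form bound by PPARs, or with 4 bases between them, a form bound by thyroid hormone receptors. These were found in 0.0335% and 0.0152% of all promoters, and every match to them also holds AGGTCA. The E-box CACGTG, in 6.02% of all promoters, and TATAAA, in 12.4%, were likewise in none of the 28. Such matches describe letters in a window, and binding was not measured in these files.

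Fatty acids become substrates for oxidation once an acyl-CoA synthetase has activated them. The 5 tested genes grouped here include Acot2, a thioesterase that reverses this step. With all 6 mice none of the 5 was called by edgeR, DESeq2 or limma voom. Their median log2 fold change was 0.11, Acot2 included. Acsl1, the long-chain synthetase most associated with oxidation in muscle, was at 35.6, 36.1 and 45.7 CPM in the WT mice and 44.9, 44.1 and 51.2 CPM in the cD2KO mice. The groups overlapped because c130 lay above fl125 and fl126, and the log2 fold change was 0.26 (standard error 0.23, 95% interval −0.24 to 0.75, unadjusted p = 0.287 by edgeR). Acsl3 and Acsl5, both long-chain synthetases, had log2 fold changes of 0.11 and −0.14. Acsl4, which prefers arachidonate, was at 17.2 ± 3.76 CPM in WT against 11.3 ± 5.13 CPM in cD2KO (SD, n = 3), with a log2 fold change of −0.63 (95% interval −1.47 to 0.22, unadjusted p = 0.132 by edgeR). The mouse fl125, at 17.2 CPM, lay among the WT mice and stood apart from fl126 and fl128 at 8.90 and 7.86 CPM, and without it Acsl4 had a log2 fold change of −1.01 (unadjusted p = 0.0272 by edgeR). Acsl6, a synthetase best known from brain, had 8, 2 and 8 counts in the WT mice and 4, 12 and 4 in the cD2KO mice and was under the expression minimum. Acot2, a mitochondrial thioesterase that cuts coenzyme A off again, was at 37.7 ± 8.92 CPM in WT against 50.7 ± 16.9 CPM in cD2KO (log2 fold change 0.43, 95% interval −0.18 to 1.03, unadjusted p = 0.155 by edgeR). Without fl125 its log2 fold change was 0.65 (unadjusted p = 0.0323 by edgeR). Acot1 is a near-identical copy of Acot2 with a log2 fold change of −0.34, and how counting split reads between them is not given in the sources used here.

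Set per kilobase of annotated exon, the synthetases could be compared with each other in WT mice. Acsl3 was at 7.74 ± 0.816 CPM per kilobase, Acsl5 at 6.14 ± 0.855, Acsl1 at 3.73 ± 0.543, Acsl4 at 3.19 ± 0.695 and Acsl6 at 0.187 ± 0.104 (SD, n = 3 mice). Acsl3 and Acsl5 lay within 2 SD of each other, as did Acsl1 and Acsl4, and Acsl6 was far below all of them. The labels name a digital RNA-seq service, and whether reads came from transcript ends, which would make a division by length misleading, is not given in the sources used here.

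The carnitine shuttle had no called gene by any of these tools with all 6 mice and the expression minimum. The median log2 fold change of its 4 tested genes was −0.26, and 3 of the 4 were below 0. Cpt1a encodes the form of carnitine palmitoyltransferase 1 that controls entry into the mitochondrion in most tissues. It was at 47.1, 124.1 and 83.1 CPM in the WT mice and 36.3, 73.6 and 64.8 CPM in the cD2KO mice. WT mice spanned a wide range, with c124 below both fl126 and fl128. The means were 84.8 ± 38.5 CPM in WT against 58.2 ± 19.5 CPM in cD2KO (SD, n = 3), giving a log2 fold change of −0.53 (standard error 0.35, 95% interval −1.32 to 0.25, unadjusted p = 0.163, adjusted p = 0.610 by edgeR). Without c124 it was −0.83 and passed the threshold (unadjusted p = 0.0188 by edgeR), and without c129 it was −0.13 (unadjusted p = 0.715 by edgeR). These were the lowest and the highest value over the 6 fits with a mouse left out. Without an expression minimum Cpt1a was called as well (log2 fold change −0.49, unadjusted p = 0.0395 by edgeR).

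Cpt1b, the muscle form of the same enzyme, had 0 counts in all 6 mice. A library with 0 counts allows up to 3, or 0.768 to 1.36 CPM at these depths, counting error alone being considered. Here the annotation limits the measurement further, since 81.4% of the exon bases of Cpt1b (chr15:89416405-89425863, minus strand) also belong to Gm44502, a transcript that reads through to the neighboring gene Chkb. Gm44502 had 0 counts in all mice too, while Chkb had 96 to 184. HTSeq in its default mode leaves out a read that falls on 2 genes, so the 0 of Cpt1b cannot be told apart from loss in counting.

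Cpt2, which hands the acyl group back to coenzyme A inside the mitochondrion, was at 20.5, 12.9 and 15.6 CPM in the WT mice and 9.06, 15.7 and 18.9 CPM in the cD2KO mice. The groups overlapped throughout, the log2 fold change being −0.16 (standard error 0.37, 95% interval −0.95 to 0.63, unadjusted p = 0.669 by edgeR). Slc25a20, the carnitine-acylcarnitine carrier of the inner membrane, was at 16.5 ± 4.08 CPM in WT against 12.7 ± 2.36 CPM in cD2KO, and Crat, the acetyltransferase of the same system, at 73.7 ± 23.0 and 75.9 ± 26.7 CPM (SD, n = 3). Their log2 fold changes were −0.37 (95% interval −1.13 to 0.39) and 0.05 (95% interval −0.56 to 0.65).

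The enzymes of the β-oxidation spiral were present at moderate levels, with WT means of 34.7 to 106 CPM, and their RNA differed little between the groups. Of the 13, 1 was higher and 0 were lower, where 5.34% and 6.62% of all genes were. Their median log2 fold change was 0.12, and 9 of 13 were above 0. Summed over the 13 genes, CPM was 864 ± 21.7 in WT against 929 ± 47.1 in cD2KO (SD, n = 3 mice). Leaving aside Acads, whose 95% interval reached 1.08, no interval reached below −0.61 or above 0.78. Each of the other 12 genes thus had an interval within 1 on the log2 scale. These intervals hold for each gene singly and not for the 12 jointly.

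Acads (ENSMUSG00000029545, chr5:115110299-115119346, minus strand) encodes the short-chain acyl-CoA dehydrogenase, which takes the first electrons from short acyl chains. It was at 33.5, 32.4 and 38.1 CPM in the WT mice and 57.1, 47.2 and 53.1 CPM in the cD2KO mice. The groups were well apart and each was tight. The mean rose from 34.7 ± 3.00 to 52.5 ± 4.97 CPM (SD, n = 3), or 1.51-fold, a log2 fold change of 0.59 (standard error 0.23, 95% interval 0.11 to 1.08, unadjusted p = 0.0204, adjusted p = 0.322 by edgeR). It stayed between 0.57 and 0.67 with each mouse left out, and the call was lost only without c124 (unadjusted p = 0.0571 by edgeR).

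The dehydrogenases for longer chains are the enzymes most like it. Acadvl, for very long chains, was at 81.7, 70.0 and 68.5 CPM in the WT mice and 76.6, 80.1 and 88.3 CPM in the cD2KO mice, the log2 fold change being 0.15 (standard error 0.19, 95% interval −0.27 to 0.57, unadjusted p = 0.450 by edgeR). Acadm, for medium chains, was at 74.7, 62.6 and 58.5 CPM in the WT mice and 82.0, 69.8 and 70.4 CPM in the cD2KO mice, the log2 fold change being 0.18 (standard error 0.20, 95% interval −0.26 to 0.61, unadjusted p = 0.399 by edgeR). In both genes the groups overlapped through c124, their highest WT mouse. Acadl, for long chains, was at 97.0 ± 22.2 CPM in WT against 97.8 ± 3.78 CPM in cD2KO. Per kilobase of exon in WT mice, Acadl was at 48.4 ± 11.1 CPM, Acadvl at 27.3 ± 2.68, Acadm at 16.7 ± 2.16 and Acads at 15.3 ± 1.32 (SD, n = 3). Acadm and Acads did not differ beyond their spread on that scale. Of the exon bases of Acadvl, 42.9% overlap Dvl2 on the opposite strand.

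The mitochondrial trifunctional protein carries out the remaining steps for long chains, and Hadha and Hadhb encode its subunits. Hadha was at 114, 103 and 101 CPM in the WT mice and 92.9, 123 and 131 CPM in the cD2KO mice (log2 fold change 0.12, standard error 0.20, 95% interval −0.31 to 0.55, unadjusted p = 0.553 by edgeR). Hadhb was at 42.8, 46.4 and 38.4 CPM in the WT mice and 29.5, 44.8 and 56.3 CPM in the cD2KO mice (log2 fold change 0.04, standard error 0.26, 95% interval −0.53 to 0.61, unadjusted p = 0.886 by edgeR). In both subunits fl125 was the lowest of the 6 mice and fl128 the highest.

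For shorter chains these steps fall to separate enzymes. Echs1, the short-chain enoyl-CoA hydratase, was at 57.9, 54.9 and 54.7 CPM in the WT mice and 63.4, 71.2 and 75.1 CPM in the cD2KO mice, or 55.8 ± 1.77 and 69.9 ± 5.94 CPM (SD, n = 3). Hadh, the short-chain hydroxyacyl-CoA dehydrogenase, was at 73.0, 64.1 and 66.5 CPM in the WT mice and 80.7, 76.0 and 74.2 CPM in the cD2KO mice, or 67.8 ± 4.59 and 76.9 ± 3.35 CPM. Along with Acads these were the β-oxidation genes in which every cD2KO mouse lay above every WT mouse, although the differences of Echs1 (log2 fold change 0.32, standard error 0.20, 95% interval −0.10 to 0.75, unadjusted p = 0.127, adjusted p = 0.563 by edgeR) and of Hadh (log2 fold change 0.18, standard error 0.19, 95% interval −0.24 to 0.59, unadjusted p = 0.372, adjusted p = 0.782 by edgeR) did not pass the threshold. Such separation upward was seen in 8.1% of all genes. The remaining enzymes of the spiral are the thiolases Acaa2 and Acaa1a, the latter peroxisomal, the isomerases Eci1 and Eci2 and the reductase Decr1, which serve unsaturated chains. Their log2 fold changes were between −0.10 and 0.23, with overlap in each of them.

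The electron transfer flavoprotein passes electrons from all acyl-CoA dehydrogenases to the respiratory chain through its dehydrogenase, Etfdh. None of its 3 genes was called by edgeR, DESeq2 or limma voom. Etfb was at 152 ± 7.03 CPM in WT against 168 ± 11.0 CPM in cD2KO (log2 fold change 0.15, 95% interval −0.24 to 0.54), Etfa at 19.4 ± 8.37 and 16.7 ± 1.14 CPM (−0.21, 95% interval −0.97 to 0.55) and Etfdh at 17.2 ± 7.92 and 11.9 ± 2.04 CPM (−0.52, 95% interval −1.37 to 0.32; SD, n = 3). In Etfa and Etfdh the wide WT spread came with c129, at 28.7 and 26.2 CPM the highest of the 6 mice. Of the exon bases of Etfb, 58.2% overlap Gm45233 or Mir7051 on the same strand, and how such reads were counted is not given in the sources used here.

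The PPARs are nuclear receptors that bind fatty acids and switch on genes of their oxidation. Ppara had 15, 15 and 14 counts in the WT mice and 10, 17 and 1 in the cD2KO mice, so that fl128 was under the floor of 3 counts and the others well over it. Its log2 fold change of −0.43 had a 95% interval of −2.09 to 1.23 (unadjusted p = 0.589 by edgeR), the widest of the list. Ppard was at 20.99, 30.6 and 17.7 CPM in the WT mice and 24.0, 46.2 and 35.2 CPM in the cD2KO mice. The groups overlapped through fl125 and c129, and the log2 fold change was 0.61 (standard error 0.32, 95% interval −0.07 to 1.29, unadjusted p = 0.0735, adjusted p = 0.480 by edgeR). Ppard was called without c129 (log2 fold change 0.89, unadjusted p = 0.0263 by edgeR) and without fl125 (0.86, unadjusted p = 0.0121). It was also called without an expression minimum (0.65, unadjusted p = 0.0359).

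The mice of a group differed from each other. Of the 31 tested genes, 12 had their lowest level in fl125 and 8 their highest in fl128, both cD2KO mice. The summed CPM of the 33 genes was 1973, 2163 and 2063 in the WT mice and 1819, 2053 and 2173 in the cD2KO mice, so that fl125 was the lowest and fl128 the highest by this sum, to which abundant genes such as Lpl contribute most. As a mean of log2 CPM, which weights genes equally, fl125 was again the lowest at 5.41 and fl126 the highest at 5.64, with c129 at 5.61 and fl128 at 5.60. Without fl125, 5 of the tested genes were higher and 2 lower, the higher ones being Pnpla2, Fabp3, Acot2, Acads and Ppard and the lower ones Plin2 and Acsl4. Over all 11769 genes of that fit 933 were higher and 874 lower, also more than with all mice. Without fl128, 1 was higher (Acads) and 2 were lower (Lpl and Plin2), and over all 11634 genes of that fit 402 were higher and 676 lower.

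**Figure D3:**
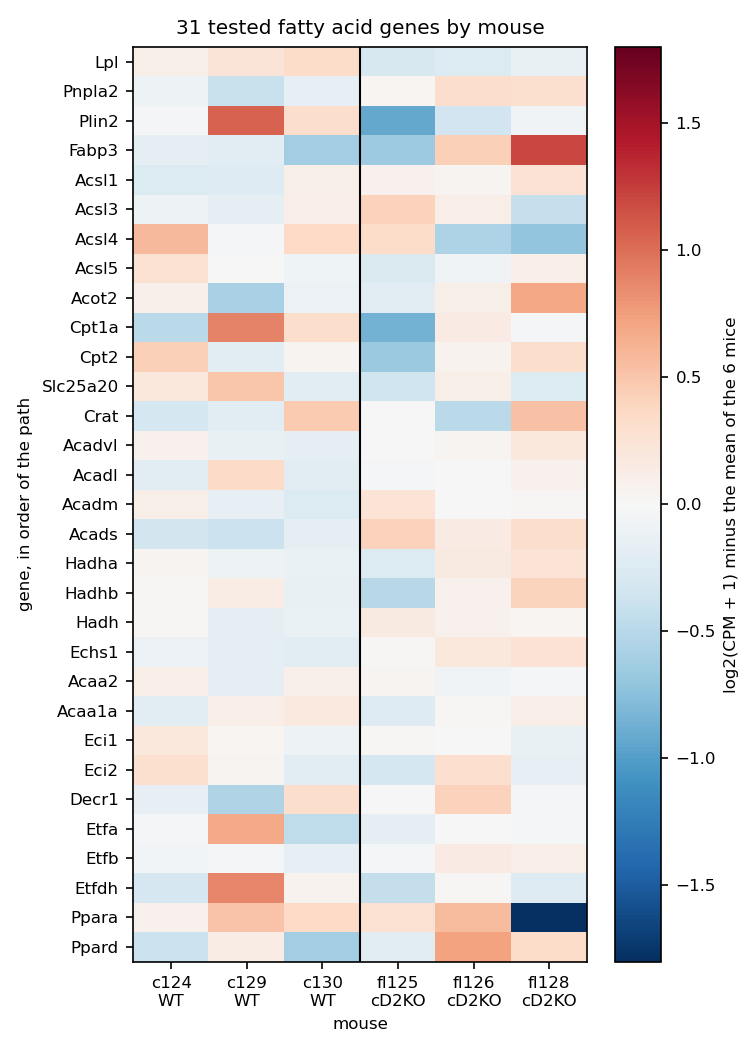
Level of each of the 31 tested genes (rows, in the order of the path) in each mouse (columns), as log2(CPM + 1) minus the mean of the 6 mice, red above and blue below it. Lpl and Plin2 are higher in the WT columns and Pnpla2 and Acads in the cD2KO columns, and the darkest cell is Ppara in fl128, which rests on 1 count.

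A further 98 genes of the pathway were listed for comparison, of which 86 were tested. Of these, 2 were higher and 5 were lower, where 5.34% and 6.62% of all genes were, and the median log2 fold change was −0.06. The 5 that were lower all belonged to the 19 tested genes of uptake, carriage, lipolysis and lipid droplets. The other 14 were not called, and over the 19 the log2 fold change was above 0 in 9 and below 0 in 10, with its median at −0.02. Cd36, the fatty acid translocase of the plasma membrane, was at 188, 285 and 146 CPM in the WT mice and 86.1, 99.6 and 121 CPM in the cD2KO mice. The groups did not overlap, and the mean fell from 206 ± 71.5 to 102 ± 17.6 CPM (SD, n = 3; log2 fold change −1.01, standard error 0.25, unadjusted p = 0.00120, adjusted p = 0.112 by edgeR). Fabp4, the fatty acid binding protein of adipocytes, endothelium and macrophages, fell from 256 ± 28.0 to 132 ± 48.5 CPM (log2 fold change −0.96, unadjusted p = 0.00149, adjusted p = 0.123 by edgeR). Gpihbp1, which anchors lipoprotein lipase on capillary endothelium, was at 16.6, 32.4 and 49.5 CPM in the WT mice and 5.44, 3.08 and 12.9 CPM in the cD2KO mice (log2 fold change −2.17, standard error 0.52, unadjusted p = 0.00149, adjusted p = 0.123 by edgeR). The cD2KO mice lay below the WT mice in all of these genes, and the calls of Cd36, Fabp4 and Gpihbp1 held with each mouse left out. With DESeq2 in place of edgeR their adjusted p were 0.0209, 0.0224 and 0.00518.

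Lipa, the lysosomal acid lipase, and G0s2, an inhibitor of the lipase that Pnpla2 encodes, were lower as well. Lipa had a log2 fold change of −0.72 (unadjusted p = 0.0202, adjusted p = 0.321 by edgeR) and G0s2 was at 37.4, 25.4 and 31.2 CPM in the WT mice and 24.0, 19.2 and 15.4 CPM in the cD2KO mice (log2 fold change −0.69, unadjusted p = 0.0343, adjusted p = 0.378 by edgeR). The call of Lipa was lost without c129 (log2 fold change −0.44) or fl128 (−0.60). That of G0s2 was lost without c124 (−0.55), c130 (−0.70), fl126 (−0.68) or fl128 (−0.55). Mgll, the monoacylglycerol lipase that completes lipolysis, was at 265, 245 and 290.4 CPM in the WT mice and 295, 346 and 421 CPM in the cD2KO mice without passing the threshold (log2 fold change 0.41, unadjusted p = 0.0626 by edgeR). It was chosen after its values were seen.

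**Figure D4:**
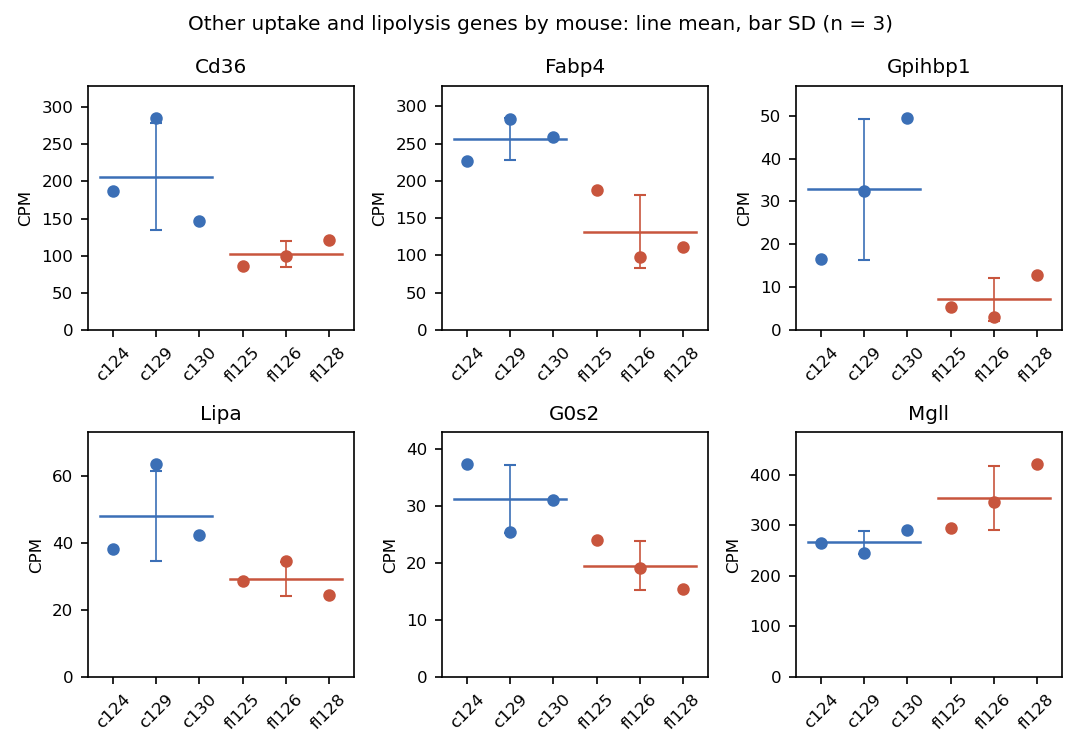
Level in CPM (y axis, from 0) of 6 further genes of uptake and lipolysis in each mouse (x axis, WT blue and cD2KO red), with the group mean as a line and the SD as a bar (n = 3). Cd36, Fabp4, Gpihbp1, Lipa and G0s2 are lower in all cD2KO mice than in any WT mouse, and Mgll, which was not called, is at 295 to 421 CPM in cD2KO and 245 to 290.4 CPM in WT.

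Outside uptake and lipolysis, calls were few. Among 30 tested genes of other mitochondrial oxidation, 1 was higher and 0 were lower, where 5.34% and 6.62% of all genes were. Acss1, which activates acetate in the mitochondrion, was at 67.6, 66.3 and 60.6 CPM in the WT mice and 95.2, 85.9 and 92.1 CPM in the cD2KO mice, with clear separation (log2 fold change 0.49, standard error 0.19, unadjusted p = 0.0232, adjusted p = 0.340 by edgeR), and its call was lost without c130 (log2 fold change 0.44). Among 16 tested peroxisomal genes the smallest unadjusted p was 0.0513 by edgeR, that of the dienoyl-CoA isomerase Ech1 (log2 fold change 0.46). Among 21 regulators of the path and their targets, 1 was higher and 0 were lower. Pdk2, a kinase that shuts pyruvate out of the citric acid cycle, was at 55.3, 63.7 and 38.4 CPM in the WT mice and 58.5, 105 and 125 CPM in the cD2KO mice (log2 fold change 0.88, standard error 0.28, unadjusted p = 0.00803, adjusted p = 0.206 by edgeR). The groups overlapped through fl125, and the call held with each mouse left out.

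Marker genes of other cell types differed between the groups as well, and their part in the calls of Lpl, Plin2, Cd36, Fabp4, Gpihbp1, Lipa and Fabp3 was not tested. Lpl, Plin2, Cd36, Fabp4 and Lipa are also known from macrophages, endothelium or adipocytes, and Fabp3 from muscle fibers. Of all genes tested, 5.34% were higher and 6.62% were lower, and the following marker counts stand beside these shares. All 16 immune cell markers had negative log2 fold changes, 5 of them called, with a ratio of summed CPM of 0.306 in cD2KO over WT (two-sided exact permutation test, p = 0.1, the smallest that 3 mice against 3 allow). Of 14 tested endothelial markers, 8 were lower, and the summed CPM was 327 to 528 in WT and 272 to 338 in cD2KO (ratio 0.679, exact permutation p = 0.2). Of 11 tested markers of fibroadipogenic progenitors, 4 were lower (ratio 0.728, exact permutation p = 0.3).

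Adipocyte markers summed to 346 to 509 CPM in WT and 149 to 332 CPM in cD2KO (ratio 0.534, exact permutation p = 0.1), 1 of the 6 tested being lower, namely Fabp4, which is counted in both lists. Fabp4 alone was at 227, 283 and 259 CPM in the WT mice and 188, 97.9 and 111 CPM in the cD2KO mice. Much of the sum was therefore Fabp4, and the ratio is no measure apart from that gene. Their defining gene Adipoq was low, at 16.4, 2.58 and 5.54 CPM in the WT mice and 7.70, 2.40 and 0.943 CPM in the cD2KO mice. All 17 muscle fiber markers had positive log2 fold changes, 2 of them called, and summed to 2950 to 6020 CPM in WT and 5132 to 9529 CPM in cD2KO (ratio 1.503, exact permutation p = 0.3). By mouse the fiber sums were 4653, 6020 and 2950 CPM in WT and 5132, 5818 and 9529 CPM in cD2KO. Fabp3 was highest in fl128 and lowest in fl125. Whether Fabp3 follows the fiber sum was not tested. Muscle stem cell markers (ratio 1.37, exact permutation p = 0.1) had 5 higher and 2 lower genes of 15, and mural cell markers (ratio 1.81, exact permutation p = 0.1), which share Notch3 and Des with them, had 7 higher of 13. Of 7 Schwann cell markers, 1 was lower (ratio 1.16, exact permutation p = 0.4). No gene of these lists was at 0 in all mice.

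**Figure D5:**
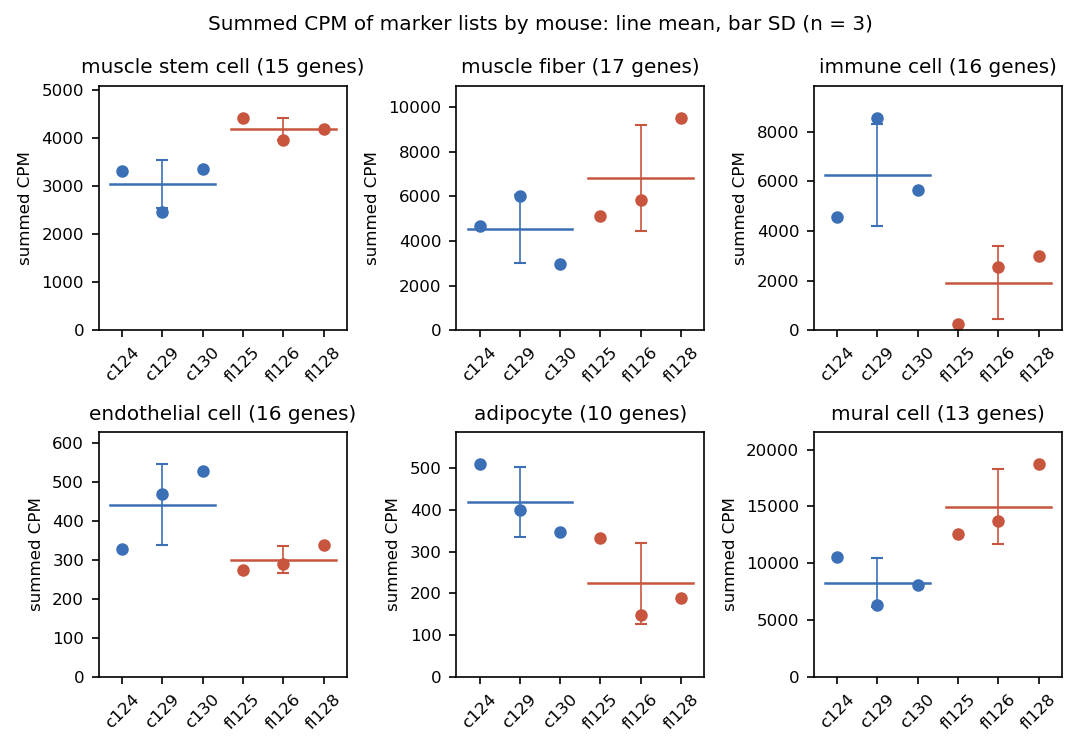
Summed CPM (y axis, from 0) of 6 cell type marker lists in each mouse (x axis, WT blue and cD2KO red), with the group mean as a line and the SD as a bar (n = 3). Immune and adipocyte sums are lower and muscle stem cell and mural sums higher in every cD2KO mouse than in any WT mouse, and fl125 has the lowest immune sum at 233 CPM. Much of the adipocyte sum is Fabp4.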

How the data were processed

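Reads per gene were counted for 6 mouse libraries, 1 per mouse. Per the labels, the submitters' processing notes name bcl2fastq, STAR 2.6.0a, HTSeq 0.9.1 and mm10, and the authors deposited raw counts, whole numbers without normalization, for 31053 genes. Which annotation served for counting, whether strand was used and how PCR duplicates were treated are not given in the sources used here. Of the 31053 identifiers, 31011 were found in GENCODE M21, which gave symbols, coordinates and exon lengths.

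The minimum was a mean above 10 counts after division by DESeq2 size factors, which kept 11633 genes. For these, edgeR 4.0.16 (R 4.3.3) fitted all 6 mice without covariates, using TMM factors and its robust quasi-likelihood test. The labels give no sex. Of 4 tested sex-linked genes 1 was lower in cD2KO, without overlap of the groups (adjusted p = 0.0885 by edgeR). The log2 fold changes of the 4 lay between −1.56 and 0.04, with a median of −0.04. The part of sex was not tested. Adjusted p are Benjamini-Hochberg values over the 11633 genes, and the threshold was an unadjusted p under 0.05, as in the study. For single values a two-sided exact permutation test over mice was run. CPM used TMM-scaled totals, and SD are between mice. The scripts were first tested on simulated data.

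The genes and lists were chosen with earlier results of these data known. Named in full were called genes, genes whose groups did not overlap and a fixed set of steps (Cpt1a, Cpt1b, Cpt2, Acadvl, Acadm, Hadha, Hadhb, Acsl1, Ppara, Ppard, Lpl, Pnpla2, Plin2 and Fabp3), and, of other lists, the called genes, up to 5 in each direction. Values of Acsl4, Acot2, Etfa, Etfb and Etfdh were added after they were seen. The alternatives tried were DESeq2 1.42.0 with its Wald test, limma voom (3.58.1), other scalings and minimums, non-robust estimation, mitochondrial genes left out, adjusted thresholds and each mouse left out in turn.

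The depth of 2184073 to 3897787 counts limits genes near 1 CPM, since 3 counts equal 0.768 to 1.36 CPM, and such floors cover counting error only. Promoter sequences are from RefSeq on GRCm38.p6, where 28 of the 33 genes matched. Proteins, arrays and qPCR were not analysed here.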

Additional observations from a re-analysis of the deposited data

How the results depend on the processing

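Plin2 and Acads were called under all 10 alternative tests, scalings and minimums, Lpl under 9 and Pnpla2 and Fabp3 under 7 each, and these 5 genes kept their direction in every fit, as did 21 of the 31 tested genes in all, these 5 included. The higher count of 3 fell to 1 when counts were scaled by the total alone and with a minimum mean of 50, was 4 without a minimum (Ppard added, with Cpt1a in place of Lpl among the lower), and was 0 at an adjusted p under 0.05 or 0.1, as was the lower count of 2. With a mouse left out, 0 (without c124) to 5 (without fl125) genes were higher and 0 (without c129) to 3 (without c124) lower. The median log2 fold change was −0.037 with the total alone and −0.020 (without fl128) to 0.11 (without fl125) with a mouse left out.

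The number of genes tested changed with the minimum. Over all genes, 939 of 18040 tested were higher without a minimum, where 621 of 11633 were in the main fit. With a mouse left out, 402 (without fl128) to 933 (without fl125) were higher. With a minimum mean of 50, 505 of 7353 tested were lower, where 770 of 11633 were in the main fit. With a mouse left out, 399 (without c129) to 874 (without fl125) were lower. With the total alone 439 genes were higher and 953 lower, so that 68.5% of calls were lower against 55.4%. The sign turned with the total alone for Crat (−0.029), Acadl (−0.058) and Hadhb (−0.037) and with a minimum mean of 50 for Acadl (−0.024). It also turned with a mouse left out for Acsl3 (−0.055 to 0.32), Cpt2 (−0.39 to 0.11), Crat (−0.26 to 0.33), Acadl (−0.083 to 0.24), Hadhb (−0.19 to 0.29), Acaa2 (−0.10 to 0.015), Acaa1a (−0.17 to 0.076), Eci2 (−0.30 to 0.062), Etfa (−0.45 to 0.19) and Ppara (−1.04 to 0.14). The cause was not tested. No paired analysis was possible because the labels number each mouse on its own and pair none across the groups.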

Other observations

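Genes of fatty acid synthesis and desaturation, the reverse of the path described above, were counted in the same fit. Of 14 listed, 13 were tested. Of these 1 was higher and 0 were lower, where 5.34% and 6.62% of all genes were. The median log2 fold change was 0.17, and 9 of 13 were above 0, against 48.1% of all genes. Elovl5, an elongase of polyunsaturated chains, was at 110.1, 87.3 and 114 CPM in the WT mice and 102, 165 and 194 CPM in the cD2KO mice. The groups overlapped through fl125, and the log2 fold change was 0.56 (standard error 0.24, 95% interval 0.05 to 1.08, unadjusted p = 0.0341, adjusted p = 0.377 by edgeR's quasi-likelihood test). The call was lost without any mouse other than fl125, with log2 fold changes of 0.36 to 0.82 over the 6 fits. Fasn, the fatty acid synthase, was at 66.4 ± 18.0 CPM in WT against 91.7 ± 22.4 CPM in cD2KO (SD, n = 3; log2 fold change 0.46, 95% interval −0.07 to 0.99, unadjusted p = 0.0815 by edgeR). Scd1 and Scd2, the stearoyl-CoA desaturases, had log2 fold changes of 0.19 and 0.15 without passing the threshold. The 4 genes below 0 were Thrsp (−0.39), the elongase Elovl6 (−0.33), the transcription factor Srebf1 (−0.26) and the desaturase Fads1 (−0.22), none of them called. In Elovl6 and Fads1 every cD2KO mouse lay below every WT mouse, and no gene of the list had every cD2KO mouse above. Such separation was seen downward in 10% and upward in 8.1% of all genes. Apart from Elovl5, the synthesis genes named here were chosen after their values were seen.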
